A study of Mus musculus with 12 samples.

Results

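Iron handling by the cell is represented by 9 genes of the 21638 genes in the count table, measured in endothelial cells of the adult mouse cortex. They cover iron oxidation (Cp, Heph), export (Slc40a1), uptake (Tfrc, Slc11a2, Slc39a14), storage (Fth1, Ftl1) and release from haem (Hmox1). They were chosen by name from a list of iron genes, and the set was selected on a measured value: ceruloplasmin, Cp, stood lower in beta-catenin GOF than in the other groups. Values that involve beta-catenin GOF are therefore given as descriptions, without a test, for every member. All 9 genes passed the filter on low counts, a mean of at least 10 counts over the 12 libraries.

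Brain endothelial cells form the blood-brain barrier, and iron has to cross them to reach neurons and glia. Transferrin-bound iron is taken up through the transferrin receptor, and endosomal iron reaches the cytosol through metal transporters. Ferritin stores iron inside the cell, ferroportin exports ferrous iron, and a copper-dependent ferroxidase, ceruloplasmin or hephaestin, oxidises the exported iron so that transferrin can bind it. Iron regulatory proteins bind short RNA hairpins, the iron-responsive elements. A hairpin in a 5′ UTR lets them block translation when iron is low, and hairpins in the 3′ UTR of the transferrin receptor let them protect that RNA from decay.

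RNA of sorted cells was sequenced from 4 groups with 3 libraries each. The cells carried CD31 and lacked CD41 and CD45, surface marks of platelets and leukocytes. WT mice were the controls. Hdac2 ECKO mice were Hdac2lox/lox:Cdh5CreERT2, Ezh2 ECKO mice were Ezh2lox/lox:Cdh5CreERT2, and beta-catenin GOF mice were Ctnnb1lox/lox:Cdh5CreERT2 with constitutive activation of beta-catenin. Cdh5CreERT2 is a Cre recombinase that tamoxifen switches on in cells using the promoter of Cdh5, an endothelial cadherin. The 3 mutant groups received 5 tamoxifen doses of 75 mg/kg, and brains were taken 2 months later. The age of the mice is given only as adult, and whether WT mice carried Cre or received tamoxifen is not given in the sources used here. Nothing says that the 3 libraries of a group came from separate animals, so p-values measure the spread between these libraries, which may be technical.

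The deleted genes were read first as a check of the labels. Hdac2 stood at 104 to 163 CPM (counts per 1000000 counts, on library sizes scaled by TMM) in WT and at 82.2 to 112 CPM in Hdac2 ECKO, which overlap. Ezh2 stood at 2.69 to 8.88 CPM in WT and at 5.19 to 11.7 CPM in the group labelled Ezh2 ECKO, so its level goes against that label. Counts summed over a whole gene do not resolve the loss of a floxed exon. The name "group labelled Ezh2 ECKO" is therefore used throughout. Ctnnb1 stood at 546 to 809 CPM in WT and 478 to 696 CPM in beta-catenin GOF. Total counts ran from 24781070 to 36109975 per library. Summed over 10 endothelial markers, every library held between 16795 and 24044 CPM, with Hdac2 ECKO lowest, at 16795 to 17992 CPM. Ly6c1 was the largest part of this sum in every library, and Flt1, Kdr, Abcb1a and Slc2a1 lay wholly over WT in Hdac2 ECKO. Several libraries stood apart. The first principal component holds 29.3% of the variance. On it, replicate 2 of the group labelled Ezh2 ECKO lay at -33.2, among WT and beta-catenin GOF. Replicates 1 and 3 of that group lay with replicates 1 and 3 of Hdac2 ECKO between 47.7 and 84.3. Replicate 2 of Hdac2 ECKO lay at 9.30. WT replicate 2 held 9600 CPM of 15 interferon- and inflammation-inducible genes, against at most 1605 CPM in any other library. The 4 haemoglobin genes summed to 36119 to 61372 CPM in WT, 400.0 to 21675 CPM in Hdac2 ECKO, 2518 to 6663 CPM in the group labelled Ezh2 ECKO and 509 to 35369 CPM in beta-catenin GOF. In these bulk samples, fewer cells of a type and less RNA per cell cannot be told apart.

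The hairpins that tie several of these genes to the cell's iron level can be read in the reference transcripts of GENCODE M21 on GRCm38. The letters searched were an unpaired C, 5 bases, the loop CAGTGN and 5 bases able to pair with the first 5, allowing G to pair with T, on the transcript strand only. Of 21901 genes with a coding transcript, 294 (1.34%) hold such a stretch. Among the members, 4 do: Slc40a1, Tfrc, Fth1 and Ftl1. The sites are printed because they are the shared element of export, uptake and storage, with capitals on the unpaired C and on the loop. The ferritin and ferroportin sites lie in exons, in the 5′ UTR, at chr1:45925468-45925490 on the minus strand (Slc40a1), chr19:9982735-9982757 on the plus strand (Fth1) and chr7:45459782-45459804 on the minus strand (Ftl1). The 4 Tfrc sites lie in the 3′ UTR between chr16:32631222-32631244 and chr16:32631713-32631735 on the plus strand.
Slc40a1: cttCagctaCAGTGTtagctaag
Fth1: ctgCttcaaCAGTGCttgaacgg
Ftl1: ttgCttcaaCAGTGTttgaacgg
Tfrc site 1: tatCggaagCAGTGCcttccata
Tfrc site 2: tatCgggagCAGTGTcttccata
Tfrc site 3: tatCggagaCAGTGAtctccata
Tfrc site 4: tatCgggaaCAGTGTttcccata

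The ferritin pair shares the stem ttcaa, and the 4 Tfrc sites begin and end with the same letters. In the other 5 members, these letters do not occur in the annotated coding transcripts. The search allowed no other loop and no further unpaired base in the stem. Hairpins of another form in these 5 members would therefore not be found. A match is a description of the sequence only, and iron content was not measured.

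**Figure D1:**
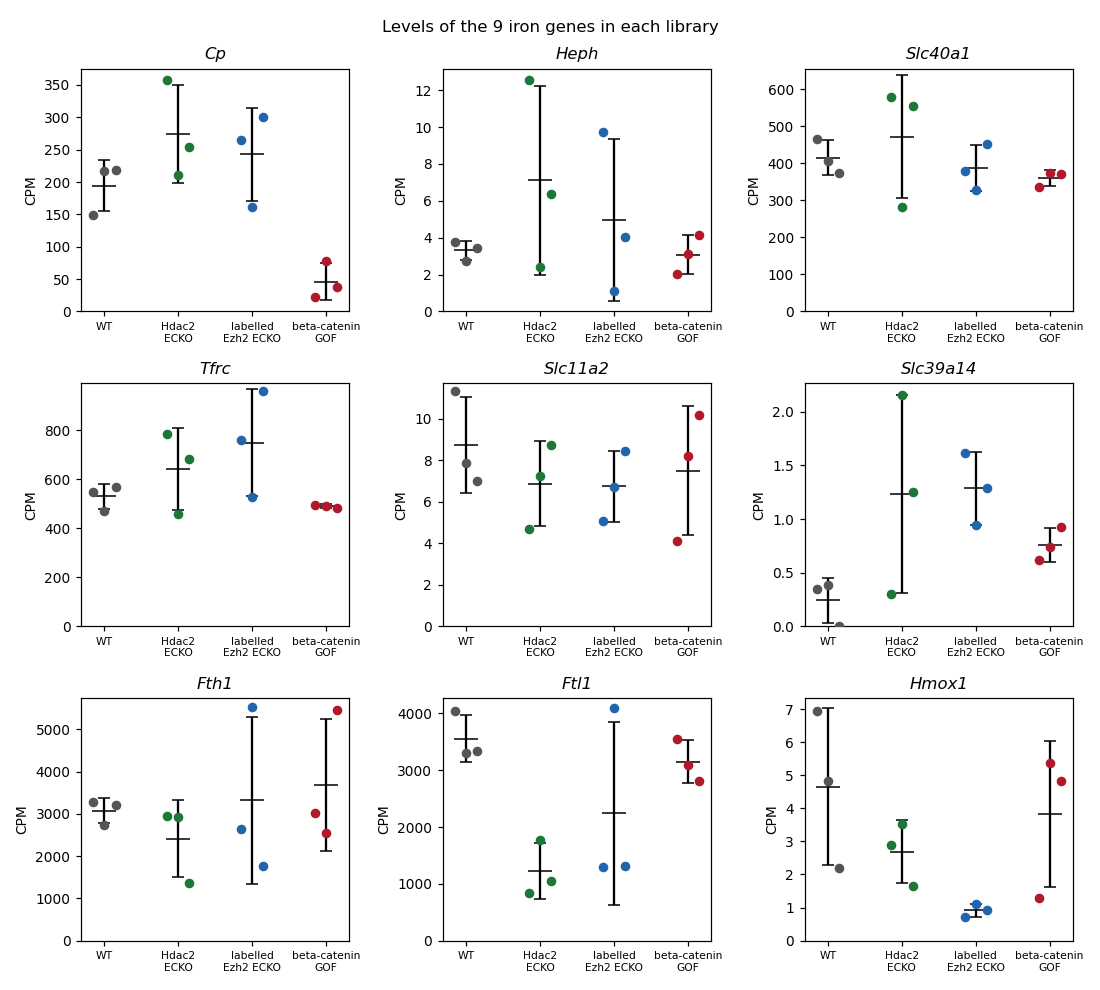
Level of each of the 9 iron genes in CPM (vertical axis, linear and starting at 0) in each library by group (horizontal axis); points are libraries in the order of their replicate numbers, and bars give the mean and SD of 3 libraries. Cp in beta-catenin GOF lies between 22.9 and 77.9 CPM, under every other library, and Ftl1 in Hdac2 ECKO lies between 843 and 1775 CPM, under every WT library.

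Ceruloplasmin, the circulating and membrane-anchored copper ferroxidase, is encoded by Cp (ENSMUSG00000003617.16, mm10 chr3:19957054-20009145, plus strand). In WT it stood at 149, 217 and 218 CPM. In beta-catenin GOF it stood at 22.9, 77.9 and 37.4 CPM, so the highest of these libraries lay under the lowest of WT. The mean was 46.1 ± 28.6 CPM (SD, n = 3) against 195 ± 39.8 CPM (SD, n = 3), a log2 fold change of -2.08 (SE 0.40), or 4.22-fold lower. This is the value that chose the genes. No gene of the 12577 tested was called in this contrast (edgeR quasi-likelihood test, adjusted p under 0.05, 0% called), 763 had an unadjusted p under 0.05, and DESeq2 called 38. Groups that did not overlap were found for 12.7% of all genes in this contrast.

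Cp in Hdac2 ECKO stood at 358, 210.5 and 255 CPM, of which replicate 2 lay within WT. In the group labelled Ezh2 ECKO it stood at 265, 162 and 301 CPM, again with replicate 2 within WT. The order of the means was beta-catenin GOF, WT, the group labelled Ezh2 ECKO (243 ± 72.4 CPM, SD, n = 3) and Hdac2 ECKO (274 ± 75.9 CPM, SD, n = 3). The last 3 of these overlapped. The log2 fold change against WT was 0.50 (SE 0.38) in Hdac2 ECKO, with an adjusted p of 0.378, and 0.32 (SE 0.38) in the group labelled Ezh2 ECKO, with an adjusted p of 0.632 (edgeR, Benjamini-Hochberg over all genes tested). Neither passed the threshold. Against these 2 groups, Cp in beta-catenin GOF stood lower by -2.57 and -2.40 on the log2 scale. Cp has a gene model of 9566 bases, in the longest length quintile of the genes tested. That quintile had a median log2 fold change of 0.66 in Hdac2 ECKO and 0.43 in the group labelled Ezh2 ECKO, and with each library's length trend removed Cp stood at -0.02 and -0.04 there. In beta-catenin GOF the median of that quintile was 0.13, and Cp stood at -2.18 with the trend removed.

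Other cells that make ceruloplasmin or could enter the sort were read beside it. All 8 astrocyte markers were in the table. Their summed levels were 41.5 to 55.5 CPM in WT and 40.6 to 63.9 CPM in beta-catenin GOF, which overlap. The largest part was Gja1, at 19.4 to 31.7 CPM in WT and 33.7 to 51.7 CPM in beta-catenin GOF. Sox9 went the other way, at 9.23 to 22.1 CPM in WT and 3.25 to 9.76 CPM in beta-catenin GOF. Slc1a3 ran from 1.63 to 4.81 CPM and from 1.30 to 2.32 CPM. No further member passed 1.25 CPM in these groups. The 5 choroid plexus markers summed to at most 2.47 CPM in WT, where Cp was 149 to 218 CPM. They summed to 0.449 to 33.6 CPM in beta-catenin GOF and to 23.7 to 182 CPM in the group labelled Ezh2 ECKO. Ttr alone held 33.4 CPM in beta-catenin GOF replicate 1 and 22.7 to 181.6 CPM in the group labelled Ezh2 ECKO. Folr1, Kl, Clic6 and Aqp1 were each at most 1.17 CPM in both groups. The 7 perivascular fibroblast markers summed to 285 to 371 CPM in WT and 113 to 308 CPM in beta-catenin GOF. The lowest sum, 113 CPM, and the lowest Cp, 22.9 CPM, fell in the same library, replicate 1 of beta-catenin GOF. The 10 pericyte and smooth muscle markers summed to 67.7 to 124 CPM in WT and 122 to 384 CPM in beta-catenin GOF. No marker of these lists was at 0 in all libraries. The part of the astrocyte, fibroblast and mural markers in the Cp difference was not tested. Without beta-catenin GOF replicate 1 the log2 fold change of Cp was -1.75, and without replicate 2, the library with the most Cp, it was -2.69. Without WT replicate 2 it was -1.99. The 15 interferon- and inflammation-inducible genes summed to 953 to 1054 CPM in beta-catenin GOF against 1384 to 9600 CPM in WT, and the 7 leukocyte markers to 5.75 to 7.23 CPM against 12.3 to 32.2 CPM, both wholly under WT. Their part in the Cp difference was not tested.

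The gene overlaps Hps3 on the opposite strand, and whether reads were counted by strand is not stated, so reads of the shared stretch cannot be told apart. The 250 bases before the Cp start in the RefSeq promoter table (GRCm38.p6, chr3:19956804-19957053, plus strand) are printed because beta-catenin acts on genes through TCF/LEF proteins. Entries were found for 4 of the 9 members. Capitals mark AACAAAG, which reads CTTTGTT on the minus strand, 108 bases before the start. The table holds a second Cp window, from a start further into the gene (chr3:19956999-19957248), which is not printed and has a match of CTTTGTA on the plus strand 191 bases before its start.
Cp promoter: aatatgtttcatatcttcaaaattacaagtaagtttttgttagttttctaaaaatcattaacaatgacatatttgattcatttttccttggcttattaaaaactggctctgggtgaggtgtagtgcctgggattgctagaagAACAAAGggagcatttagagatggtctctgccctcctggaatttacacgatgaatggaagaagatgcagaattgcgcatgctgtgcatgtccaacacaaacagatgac

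The TCF/LEF motif searched was CTTTG and then 2 bases that are each A or T, on both strands, and 14.8% of the 32851 windows of 250 bases in the table hold it. Such a match in Cp is a description and shows no binding.

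Hephaestin, Heph (ENSMUSG00000031209.14, chrX:96455359-96574485, plus strand), is the membrane-bound ferroxidase related to ceruloplasmin. It stood at 3.75, 2.72 and 3.45 CPM in WT and at 2.01, 3.11 and 4.12 CPM in beta-catenin GOF, which overlap. In Hdac2 ECKO it stood at 12.6, 2.41 and 6.38 CPM, and in the group labelled Ezh2 ECKO at 9.72, 1.10 and 4.02 CPM. Replicate 2 was the lowest in both of these groups and lay under every WT library. The log2 fold changes of 1.10 (SE 0.67, adjusted p 0.260, edgeR) and 0.58 (SE 0.67, adjusted p 0.614, edgeR) did not pass the threshold. Heph overlaps Hsf3 on the opposite strand and 2 processed pseudogenes, and its reads may hold theirs.

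Per kilobase of gene model, Cp was the more abundant of the ferroxidase pair. In WT, Cp stood at 20.3 ± 4.16 CPM per kilobase (SD, n = 3) and Heph at 0.432 ± 0.0689 (SD, n = 3). The ratio of Cp to Heph per kilobase was 31.8 to 63.8 in WT and 7.26 to 20.1 in beta-catenin GOF, so Cp also exceeded Heph in every beta-catenin GOF library. The ratio ran from 22.8 to 69.8 in Hdac2 ECKO and from 21.8 to 118 in the group labelled Ezh2 ECKO. These ranges overlap with WT, with an exact two-sided permutation p of 0.7 and 0.9, where 0.1 is the smallest that 3 against 3 libraries allow.

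Ferroportin, Slc40a1 (ENSMUSG00000025993.10, chr1:45908068-45926523, minus strand), is the exporter whose iron the ferroxidases oxidise. It stood at 466, 405 and 375 CPM in WT. Beta-catenin GOF held 336, 375 and 371 CPM, with its highest library at 374.5 CPM just under the lowest of WT at 375.3 CPM. The log2 fold change there was -0.21 (SE 0.27), a description only. Hdac2 ECKO held 581, 282 and 555 CPM, on both sides of WT, and the group labelled Ezh2 ECKO held 380.2, 328 and 453 CPM. Neither difference passed, with log2 fold changes of 0.19 (SE 0.27, adjusted p 0.658, edgeR) and -0.10 (SE 0.27, adjusted p 0.847, edgeR). The ratio of Cp to Slc40a1 per kilobase was 0.2998 to 0.546 in WT and 0.0640 to 0.196 in beta-catenin GOF.

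The transferrin receptor, Tfrc (ENSMUSG00000022797.16, chr16:32608920-32632794, plus strand), takes up transferrin-bound iron. Its level was 548, 471 and 568 CPM in WT and 495, 492 and 481 CPM in beta-catenin GOF, inside the range of WT. Hdac2 ECKO held 783, 458 and 683 CPM. The group labelled Ezh2 ECKO held 760.1, 528 and 961 CPM, of which replicates 1 and 3 lay over every WT library and replicate 2 within WT. The log2 fold change in that group was 0.50 (SE 0.27) with an adjusted p of 0.253 (edgeR). In Hdac2 ECKO it was 0.28 (SE 0.27) with an adjusted p of 0.487 (edgeR), so neither passed.

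Slc11a2 (ENSMUSG00000023030.16, chr15:100387898-100425072, minus strand) encodes DMT1, the ferrous iron transporter of endosomes and the cell surface. It was low in all groups, from 6.98 to 11.3 CPM in WT, 4.66 to 8.74 CPM in Hdac2 ECKO, 5.06 to 8.44 CPM in the group labelled Ezh2 ECKO and 4.09 to 10.2 CPM in beta-catenin GOF. All 4 ranges overlapped. The log2 fold changes against WT were -0.34 (SE 0.40, adjusted p 0.570, edgeR) in Hdac2 ECKO, -0.37 (SE 0.40, adjusted p 0.584, edgeR) in the group labelled Ezh2 ECKO, and beta-catenin GOF had -0.22 (SE 0.40). The gene overlaps Gm5475 on the opposite strand.

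Slc39a14 (ENSMUSG00000022094.15, chr14:70303469-70351425, minus strand) encodes ZIP14, an importer of iron not bound to transferrin, and was close to the limit of these libraries. WT held 10, 12 and 0 counts, or 0.347, 0.380 and 0 CPM. If counts were independent, the 0 would allow up to 3 counts, or 0.107 CPM, for counting error alone. With each mate of a read pair counted, it allows more. The group labelled Ezh2 ECKO held 1.62, 0.944 and 1.29 CPM, all over WT, and beta-catenin GOF held 0.614, 0.739 and 0.929 CPM, also all over WT. In Hdac2 ECKO replicate 1 lay within WT at 0.303 CPM, and replicates 2 and 3 stood at 2.15 and 1.25 CPM. The log2 fold changes of 2.33 (SE 1.11, adjusted p 0.156, edgeR) in Hdac2 ECKO and 2.38 (SE 1.11, adjusted p 0.197, edgeR) in the group labelled Ezh2 ECKO did not pass.

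**Figure D2:**
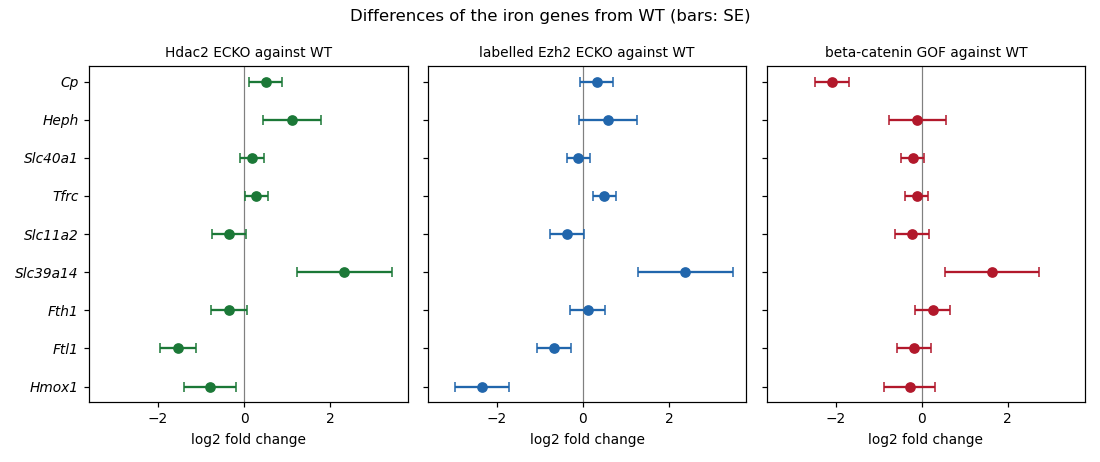
Log2 fold change from WT (horizontal axis) of the 9 iron genes (vertical axis) in each mutant group, with bars of 1 SE. Ftl1 in Hdac2 ECKO, at -1.54, passed the test, and Cp in beta-catenin GOF, at -2.08, is a description because it chose the genes.

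Ferritin light chain, Ftl1 (ENSMUSG00000050708.16, chr7:45457944-45459884, minus strand), supports the mineral core of the ferritin shell. It fell in Hdac2 ECKO, the only member called there and 1 of 9 members tested (11.1%). Of all 12577 genes tested in that contrast, 9.2% were called, 3.82% higher and 5.38% lower, so the members' share is near that of all genes. WT held 4039.7, 3298 and 3330.3 CPM of Ftl1, and Hdac2 ECKO held 843, 1775 and 1054 CPM. Every Hdac2 ECKO library lay under every WT library. Ftl1 was the 1 member of 9 whose groups did not overlap, against 37.8% of all genes in either direction. The mean was 1224 ± 489 CPM (SD, n = 3) against 3556 ± 419 CPM (SD, n = 3), a log2 fold change of -1.54 (SE 0.41) with an adjusted p of 0.0393 (edgeR). The call is not stable to single libraries. Of the 12 fits with a library left out, 5 kept it. It was lost without WT replicate 1 (adjusted p 0.141), WT replicate 2 (0.104), Hdac2 ECKO replicate 1 (0.171) or Hdac2 ECKO replicate 3 (0.148), and by a narrow margin without any replicate of beta-catenin GOF (0.0505 to 0.0566), which enter only through the shared estimate of spread. Calls over all genes, 1157 as reported, fell to between 0 and 3 without any of these WT or Hdac2 ECKO replicates. Without a replicate of beta-catenin GOF they fell to between 322 and 619. The log2 fold change of Ftl1 was lower than WT in all 22 alternatives, from -1.96 to -1.10.

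In the group labelled Ezh2 ECKO, Ftl1 stood at 1304, 4101 and 1311 CPM. Replicates 1 and 3 lay under every WT library, at the level of Hdac2 ECKO, and replicate 2 lay over every WT library. The log2 fold change was -0.67 (SE 0.40) with an adjusted p of 0.315 (edgeR), and without replicate 2 it was -1.44 with an adjusted p of 0.0125. Leaving out that library also raised the calls over all genes, from 129 to 2329. Beta-catenin GOF held 3550.4, 3089.6 and 2810.0 CPM, overlapping with WT, with a log2 fold change of -0.17 (SE 0.40).

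Ferritin RNA is abundant in young red cells, so red cell RNA was set beside Ftl1 in each library. The 4 haemoglobin genes summed to 36119, 38232 and 61372 CPM in WT and to 21675, 400.0 and 972 CPM in Hdac2 ECKO. Haemoglobin RNA was 2518, 6663 and 3495 CPM in the group labelled Ezh2 ECKO and 35369, 509 and 29171 CPM in beta-catenin GOF. The library with the most haemoglobin RNA had the least Ftl1 in Hdac2 ECKO (replicate 1) and in WT was neither the highest nor the lowest in Ftl1 (replicate 3). It had the most Ftl1 in the group labelled Ezh2 ECKO (replicate 2) and in beta-catenin GOF (replicate 1). Other markers moved with the Hdac2 ECKO group too. The 10 endothelial markers summed to 16795 to 17992 CPM there and 18870 to 24044 CPM in WT, and the 15 interferon- and inflammation-inducible genes to 1090.3 to 1242 CPM against 1384 to 9600 CPM, so both lay wholly under WT. Of the endothelial sum, Ly6c1 held 7182 to 8642 CPM in Hdac2 ECKO against 10518.5 to 15448 CPM in WT, and Cldn5 also lay under WT. Flt1, Kdr, Abcb1a and Slc2a1 lay wholly over WT there, and Pecam1, Cdh5, Tek and Slco1a4 overlapped with WT. The 10 pericyte and smooth muscle markers summed to 129.9 to 324 CPM against 67.7 to 124 CPM and the 8 astrocyte markers to 57.9 to 89.1 CPM against 41.5 to 55.5 CPM, so both lay wholly over WT. Of the astrocyte sum, Gja1 held 40.4 to 64.9 CPM in Hdac2 ECKO against 19.4 to 31.7 CPM in WT. Slc1a3 also lay over WT there, while Sox9 overlapped with WT. The part of red cell RNA and of these markers in the Ftl1 difference was not tested. Gene length also moved with the result. Ftl1 has a gene model of 1340 bases, in the shortest length quintile of the genes tested, whose median log2 fold change in Hdac2 ECKO was -0.52. With the length trend of each library removed, Ftl1 stood at -1.10 with an adjusted p of 0.0437 (edgeR).

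**Figure D3:**
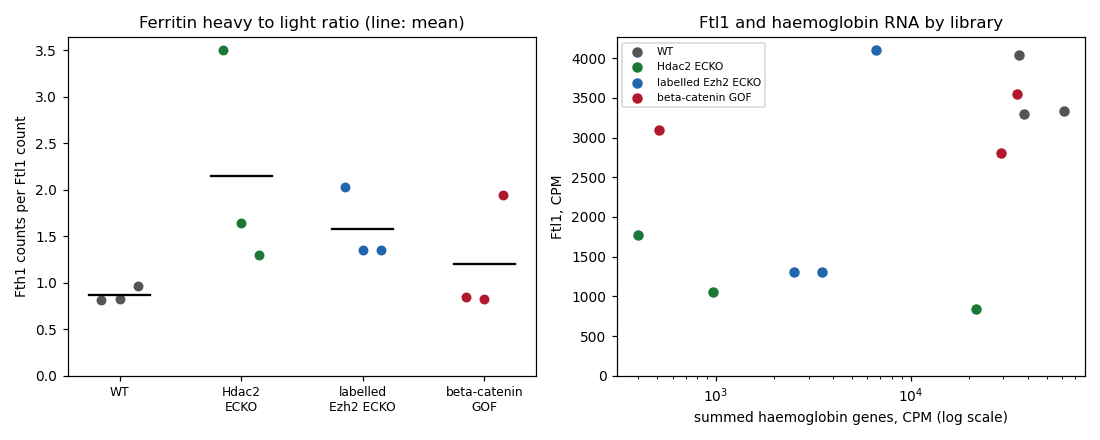
Left, Fth1 counts per Ftl1 count (vertical axis, linear) in each library by group, with lines at the group means; right, Ftl1 in CPM (vertical axis, linear) against the summed haemoglobin genes in CPM (horizontal axis, log scale). The ratio lies between 0.812 and 0.964 in WT and between 1.30 and 3.51 in Hdac2 ECKO. The library with the most haemoglobin RNA has the least Ftl1 of its group in Hdac2 ECKO (843 CPM) and the most in the group labelled Ezh2 ECKO (4101 CPM) and in beta-catenin GOF (3550.4 CPM).

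Ferritin heavy chain, Fth1 (ENSMUSG00000024661.7, chr19:9980598-9985098, plus strand), carries the ferroxidase centre of ferritin. WT held 3282, 2728 and 3211 CPM. Hdac2 ECKO held 2957, 2916 and 1369 CPM, of which only replicate 3 lay under WT. The group labelled Ezh2 ECKO held 2649, 5535 and 1768 CPM and beta-catenin GOF held 3019, 2551 and 5453 CPM. A single library of each stood over WT, replicate 2 and replicate 3 respectively. The log2 fold changes were -0.35 (SE 0.41, adjusted p 0.579, edgeR), 0.11 (SE 0.41, adjusted p 0.894, edgeR) and, without a test, 0.26 (SE 0.41).

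The balance of the chains was read as a ratio within each library. The ratio of Fth1 to Ftl1 counts was 0.868 ± 0.0837 in WT (SD, n = 3, range 0.812 to 0.964). It was 2.15 ± 1.19 in Hdac2 ECKO (SD, n = 3, range 1.30 to 3.51) and 1.58 ± 0.394 in the group labelled Ezh2 ECKO (SD, n = 3, range 1.35 to 2.03). Every library of these groups, replicate 2 of the group labelled Ezh2 ECKO included, lay over every WT library. The log2 differences of 1.18 and 0.84 had an exact two-sided permutation p of 0.1 each, the smallest that 3 against 3 libraries can give, so this test cannot pass 0.05. In beta-catenin GOF the ratio ran from 0.826 to 1.94, with replicates 1 and 2 inside the range of WT. Together the chains took 0.575% to 0.731% of counts in WT and 0.268% to 0.565% in Hdac2 ECKO (exact permutation p 0.1, two-sided). The processed copy Ftl1-ps1, which shares sequence with Ftl1, held 5.74% to 7.79% as many counts as Ftl1 in every library, and with its counts added Ftl1 in Hdac2 ECKO stood at -1.53 with an adjusted p of 0.0397 (edgeR). Per kilobase in WT, Ftl1 stood at 2654 ± 313 CPM (SD, n = 3) and Fth1 at 886 ± 86.8 (SD, n = 3), the highest of the members, followed by Tfrc at 85.6 ± 8.27, Slc40a1 at 46.2 ± 5.16 and Cp at 20.3 ± 4.16 (SD, n = 3 each). Hmox1 at 2.66 ± 1.35, Slc11a2 at 1.37 ± 0.364, Heph at 0.432 ± 0.0689 and Slc39a14 at 0.0230 ± 0.0200 CPM per kilobase followed (SD, n = 3 each), and Hmox1 and Slc11a2 did not differ beyond their spread.

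Haem oxygenase 1, Hmox1 (ENSMUSG00000005413.8, chr8:75093621-75100589, plus strand), breaks down haem and frees its iron, and is induced by haem and by oxidative stress. WT libraries spread widely, at 6.94, 4.81 and 2.21 CPM. The group labelled Ezh2 ECKO held 0.713, 1.10 and 0.934 CPM, all under WT and close together. The mean was 0.916 ± 0.195 CPM (SD, n = 3) against 4.65 ± 2.37 CPM (SD, n = 3), a log2 fold change of -2.34 (SE 0.64). With an adjusted p of 0.0699 (edgeR) it did not pass the threshold, and over the 22 alternatives the adjusted p ran from 0.00860 to 0.266 and passed in 5. It passed without WT replicate 3 (0.0256) or without replicate 2 of the group labelled Ezh2 ECKO (0.0331). Calls over all genes rose in those fits too, from 129 to 1143 and 2329. Hdac2 ECKO held 2.88, 3.52 and 1.66 CPM, with a log2 fold change of -0.79 (SE 0.60, adjusted p 0.372, edgeR), and beta-catenin GOF held 1.30, 5.38 and 4.82 CPM. The haemoglobin and inflammation genes named above were also lower in every library labelled Ezh2 ECKO than in every WT library, and their part in the Hmox1 difference was not tested.

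Over the 9 members, 0 were called in the group labelled Ezh2 ECKO against WT (edgeR quasi-likelihood test), 2 had an unadjusted p under 0.05, DESeq2 called 1 and voom with sample weights called 3. Of all genes, 1.03% were called in that contrast, 0.342% higher and 0.684% lower. Of all 12577 genes, 3111 had an unadjusted p under 0.05, DESeq2 called 1271 and voom called 3743. Hmox1 and Slc39a14, 2 of the 9, did not overlap with WT, against 22% of all genes. Between Hdac2 ECKO and the group labelled Ezh2 ECKO, 0 members and 0.0239% of all genes were called by edgeR. There 2 members had an unadjusted p under 0.05, Ftl1 at -0.87 (adjusted p 0.606, edgeR) and Hmox1 at 1.55 (adjusted p 0.556, edgeR). DESeq2 and voom called 0 members. Of all 12577 genes, 1030 had an unadjusted p under 0.05 there, DESeq2 called 98 and voom called 11. In beta-catenin GOF 3 of the 9 did not overlap with WT, against 12.7% of all genes. Cp, below WT, is the gene whose value chose the set. Slc40a1 lay below WT by a narrow margin, at 374.5 against 375.3 CPM. Slc39a14 lay above WT, where it had 0 to 12 counts. The count is therefore a description only. The median log2 fold change of the members was 0.19 in Hdac2 ECKO, 0.11 in the group labelled Ezh2 ECKO and, for beta-catenin GOF, -0.17, beside medians over all genes of 0.10, 0.05 and 0.01. These 3 comparisons share the WT libraries. Scaling by library size alone moved the median of all genes in Hdac2 ECKO to 0.34 and the share of called genes that were higher from 41.5% to 80.4%, and Ftl1 then stood at -1.27 with an adjusted p of 0.0340 (edgeR).

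**Figure D4:**
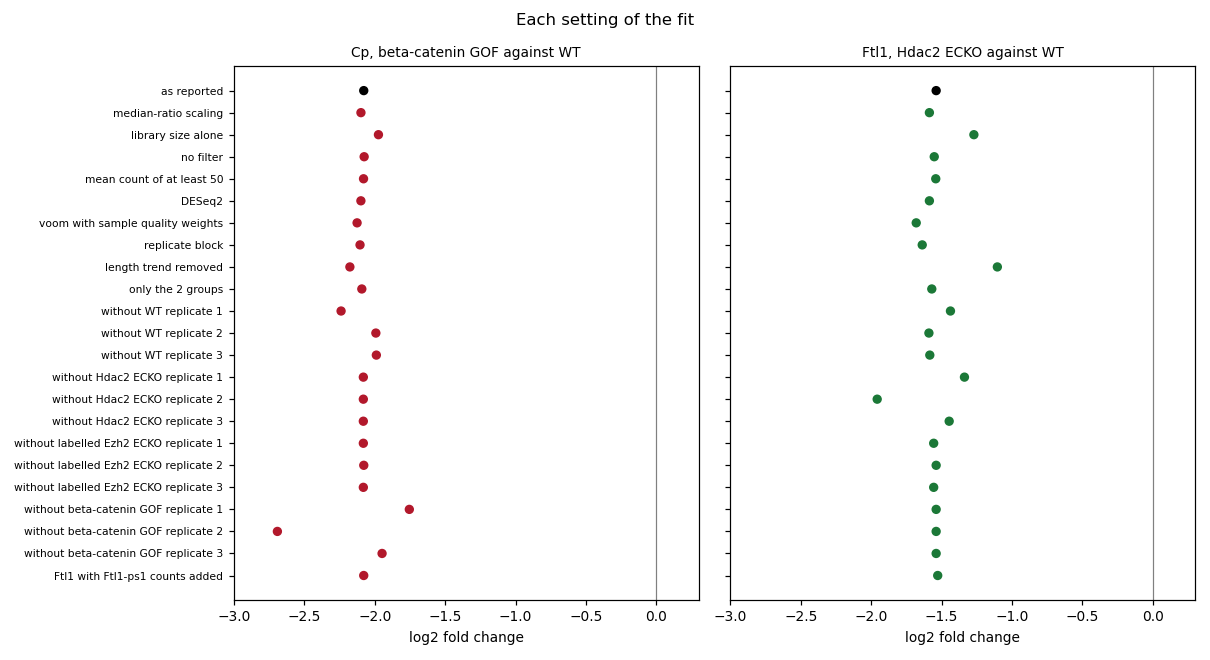
Log2 fold change (horizontal axis) of Cp in beta-catenin GOF (left) and of Ftl1 in Hdac2 ECKO (right) against WT under each setting of the fit (vertical axis); black points are the values reported, and the last setting adds the counts of Ftl1-ps1 to Ftl1. All values lie under 0, from -2.69 to -1.75 for Cp and from -1.96 to -1.10 for Ftl1. The Cp values are a description because Cp chose the genes.

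The rest of the iron pathway was read from a list of 86 further genes, of which 85 were in the table and 73 were tested. In Hdac2 ECKO 3 rose and 3 fell, or 8.22% of those tested, near the share of all genes, with a median log2 fold change of -0.09. In the group labelled Ezh2 ECKO 0 passed (edgeR), 19 had an unadjusted p under 0.05 and DESeq2 called 4, with a median of 0.05. Of all 12577 genes tested in that contrast, 3111 had an unadjusted p under 0.05 and DESeq2 called 1271. The higher genes in Hdac2 ECKO were Ireb2, Neo1 and Abcb10. Ireb2 encodes iron regulatory protein 2, which binds the hairpins printed above, and stood at 50.8 to 105 CPM against 27.4 to 41.3 CPM in WT (log2 fold change 1.24, SE 0.31, adjusted p 0.0360, edgeR). Ireb2 in the group labelled Ezh2 ECKO stood at 53.5 to 96.6 CPM, also over WT, with a log2 fold change of 1.17 and an adjusted p of 0.0665 (edgeR). Neo1, encoding neogenin, a partner of the hepcidin regulator hemojuvelin, stood at 14.6 to 21.3 CPM against 4.70 to 10.6 CPM (1.23, SE 0.35, adjusted p 0.0431, edgeR). Abcb10, a mitochondrial transporter that takes part in haem synthesis, stood at 11.7 to 15.8 CPM against 4.30 to 7.90 CPM (1.16, SE 0.35, adjusted p 0.0493, edgeR).

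The lower genes were Slc31a2, Snx3 and Slc48a1. Slc31a2 encodes the copper transporter CTR2, and copper is the cofactor of ceruloplasmin and hephaestin. It stood at 26.1 to 34.7 CPM against 52.1 to 70.3 CPM in WT (log2 fold change -1.05, SE 0.27, adjusted p 0.0381, edgeR). Snx3, a sorting nexin that recycles the transferrin receptor, stood at 457 to 864 CPM against 1374 to 1478 CPM (-1.14, SE 0.32, adjusted p 0.0412, edgeR). Slc48a1, a haem transporter of endosomes, stood at 12.7 to 27.2 CPM against 33.2 to 59.8 CPM (-1.26, SE 0.35, adjusted p 0.0422, edgeR). Each of these 6 genes lay wholly over or wholly under WT in Hdac2 ECKO, which adds nothing to the test that chose them. Of the 73 other iron genes tested, 32 did not overlap with WT there, beside 37.8% of all genes. The count of 6 fell to 0 without WT replicate 1 or 2, Hdac2 ECKO replicate 1 or 3, or beta-catenin GOF replicate 2. Calls over all genes, 1157 as reported, were 0, 0, 3, 0 and 322 in those fits, in that order. The marker sums that moved with the Hdac2 ECKO group, given above for Ftl1, stand beside these genes as well, and their part was not tested. The count of other iron genes fell to 2 without beta-catenin GOF replicate 1 or 3. It rose to 13 without Hdac2 ECKO replicate 2 and to 19 without replicate 2 of the group labelled Ezh2 ECKO. With the length trend removed it was 1. Over all genes, these fits called 528, 619, 2216, 2765 and 576, in that order.

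By the rule for naming where none passed, Timd2, Lcn2 and Hamp are given for the group labelled Ezh2 ECKO. Timd2 and Hamp rest on so few counts that their fitted fold changes, and their place by size, cannot be interpreted. Lcn2, the siderophore-binding lipocalin that inflammation induces, stood at 4.54 to 56.0 CPM against 1.53 to 3.99 CPM in WT (adjusted p 0.140, edgeR), at 2.77 to 56.5 CPM in Hdac2 ECKO and at 3.54 to 77.5 CPM in beta-catenin GOF. Timd2, a ferritin receptor of the mouse, was at most 0.0648 CPM against 0 to 0.823 CPM in WT (adjusted p 0.324, edgeR). Hamp, encoding hepcidin, which makes cells degrade ferroportin, was at most 0.359 CPM against at most 0.0356 CPM in WT (adjusted p 0.450, edgeR).

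The genes whose pattern over the 12 libraries was most like that of Cp were found by Pearson's r of log2 CPM among the 9829 genes averaging 100 counts or more. The libraries share the group structure that chose Cp, so r is a description. Anp32e, encoding a histone chaperone, had an r of 0.90, with 44.0 to 47.4 CPM in WT and 27.8 to 37.5 CPM in beta-catenin GOF. Cyyr1 had 0.89, with 949 to 1071 CPM in WT and 655 to 847 CPM in beta-catenin GOF. Cd55, encoding a complement inhibitor of the cell surface, also had 0.89, with 2.43 to 6.17 CPM in WT and 0.205 to 1.80 CPM in beta-catenin GOF. Gtf3c3 and Sestd1 followed at 0.87 and 0.86. All 5 were lower in each beta-catenin GOF library than in the lowest WT library, except Gtf3c3, whose ranges of 12.0 to 17.1 CPM and 15.5 to 22.9 CPM overlapped. Low values in beta-catenin GOF follow from picking genes by their likeness to Cp, so this is a description only. Of all genes, 12.7% did not overlap between these groups. Without the beta-catenin GOF libraries, r was 0.24 for Anp32e, 0.72 for Cyyr1, 0.53 for Cd55, 0.88 for Gtf3c3 and 0.47 for Sestd1. Among the members, r with Cp over the 12 libraries ran from -0.57 for Ftl1 to 0.59 for Tfrc, with Slc40a1 at 0.44, Heph at 0.43 and Fth1 at -0.43.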

How the data were processed

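The deposited table holds whole-number counts per gene. The authors' processing is known only from the submitters' processing notes, which name FastQC, cutadapt, STAR, featureCounts and DESeq2 and the build mm10, with no versions, roles or strand setting. Per the labels' protocols, RNA of sorted cells was amplified with SMART-Seq v4 PLUS chemistry and sequenced in pairs. The file calls its values normalized. They are whole numbers with differing totals, median-ratio size factors of 0.841 to 1.30 and an excess of even values (79.5% to 84.0% of those from 10 to 50), the pattern left by counting each mate of a read pair. They were therefore used as counts, and counting error is larger than the numbers show.

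From them, edgeR 4.0.16 (TMM scaling, quasi-likelihood test, limma 3.58.1, R 4.3.3) was fitted to all 12 libraries by group for the 12577 genes with a mean of at least 10 counts, with Benjamini-Hochberg adjustment over all genes of a contrast and a threshold of 0.05. Levels are CPM on TMM-scaled library sizes. Ratios were compared by an exact permutation test. The deposited gene lengths gave levels per kilobase. Alternatives were other scalings, filters, DESeq2 1.42.0, voom with sample weights, the replicate number as a block, a length correction, only the groups compared, each library left out and, chosen after seeing the data, Ftl1-ps1 counts added to Ftl1. Same-numbered libraries deviated together little on average (mean r 0.02), though 4 of 18 pairs had an r over 0.1. The block is given with the alternatives only.

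The 9 members, the list of other iron genes and the marker lists were chosen with earlier results of these data known. All members are named. Of the other iron genes, those past the threshold are named, at most 6 per direction, or the 3 farthest from WT where none passed; of genes like Cp, the 5 with the highest r. Entries of red cell genes and single replicates beside a result were chosen after their values were seen.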

Additional observations from a re-analysis of the deposited data

How the results depend on the processing

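Cp in beta-catenin GOF kept its direction in all 22 alternatives, from -2.69 to -1.75 with 1 library left out. That value chose the set and the alternatives use the same libraries, so its steady direction is a description only. Members called in Hdac2 ECKO numbered 0 to 1 with 1 library left out, beside 1. In the group labelled Ezh2 ECKO they numbered 0 to 2, beside 0, and 1 with no filter, 1 with DESeq2 and 3 with voom. Between these groups, 0 members were called in every alternative. Other iron genes called in Hdac2 ECKO, 6 as reported, numbered 0 to 19 with 1 library left out, 15 with no filter, 12 with DESeq2, 35 with voom and 1 with the length trend removed. In the group labelled Ezh2 ECKO they numbered 0 to 18, 5 with no filter, 4 with DESeq2 and 24 with voom. Whether libraries of the same number share a batch is not stated. Over 18 same-numbered pairs, r ran from -0.14 to 0.27, with 4 over 0.1. The mean r was 0.02, against -0.01 for pairs of other numbers. The highest r was between replicate 2 of Hdac2 ECKO and replicate 2 of the group labelled Ezh2 ECKO. With the replicate block, 12 other iron genes were called in Hdac2 ECKO and 1 in the group labelled Ezh2 ECKO, members called numbered 1 and 0, and Ftl1 in Hdac2 ECKO stood at -1.64 (adjusted p 0.0171). Over all genes, calls ran from 0 to 5374 in Hdac2 ECKO, with 1157 as reported and 0 to 2765 with 1 library left out. There they numbered 2279 with no filter, 2497 with DESeq2, 5374 with voom, 1832 with the replicate block and 576 with the length trend removed. In the group labelled Ezh2 ECKO calls ran from 2 to 3743, with 129 as reported and 2 to 2329 with 1 library left out. There they numbered 1367 with no filter, 1271 with DESeq2, 3743 with voom and 536 with the replicate block. Between these groups calls ran from 1 to 199 (3 as reported, 98 with DESeq2). For beta-catenin GOF against WT they ran from 0 to 157 (0 as reported, 38 with DESeq2).

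No value that changed sign belonged to a difference that had passed a test, and the cause was not tested. With the length trend removed, Cp was -0.0230 in Hdac2 ECKO and -0.0433 in the group labelled Ezh2 ECKO, and Slc40a1 in Hdac2 ECKO was -0.33. With voom, Fth1 in the group labelled Ezh2 ECKO was -0.28. With 1 library left out, Slc40a1 ran from -0.0179 to 0.40 in Hdac2 ECKO. In the group labelled Ezh2 ECKO, Heph ran from -0.39 to 1.06, Slc40a1 from -0.24 to 0.0039, Fth1 from -0.48 to 0.40 and Hamp from -1.92 to 4.90, fitted values that rest on too few counts to be interpreted. In beta-catenin GOF, where no test was made, Hmox1 ran from -0.61 to 0.13, Fth1 from -0.14 to 0.46, Heph from -0.37 to 0.13 and Slc11a2 from -0.50 to 0.07. Between Hdac2 ECKO and the group labelled Ezh2 ECKO, Cp ran from -0.0670 to 0.34 (-0.0102 with voom), Heph from -0.20 to 1.45, Slc11a2 from -0.17 to 0.24 (-0.0082 with median-ratio scaling, -0.0080 with DESeq2, -0.0739 with the length trend removed), Slc39a14 from -0.76 to 0.41 (0.19 with library size alone) and Fth1 from -0.77 to 0.13. Slc39a14, at 0 to 66 counts a library, has no value at a mean count of at least 50.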
